A study of Mus musculus with 12 samples.

Results

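The insulin-like growth factor genes described here are 10 of the 34866 genes in the table: the ligands Igf1 and Igf2, the receptors Igf1r and Igf2r, and the binding proteins Igfbp2 to Igfbp7. They were taken by symbol, and each symbol matched 1 Ensembl identifier, so no choice between identifiers was needed. All 10 passed the filter on low values, a 12-library mean no lower than 1 TPM, and were tested. The study sequenced mRNA from mouse embryonic fibroblasts to ask how loss of Sirt3, a mitochondrial deacetylase, acts in cells of each sex. Expression was deposited as TPM, a relative transcript abundance corrected for transcript length and for the total of its library. The 4 groups held 3 libraries each. The male WT and female WT cells were Sirt3+/+ on the 129S1/SvImJ background, and the male KO and female KO cells were labelled Sirt3-/-, with both stocks from the Jackson Laboratory. The cells of all 4 groups came from 13-day embryos, were made into stable lines with an SV40 plasmid, and received no treatment named in the labels. How many independent lines stand behind each group is not stated, so line, sex and genotype cannot be separated, and the p-values measure spread among triplicate cultures. TPM keep no read totals, so the depth reached by each library is unknown here, although the study states a target number of reads per sample.

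Igf1 and Igf2 are secreted growth factors that activate the receptor tyrosine kinase encoded by Igf1r, upstream of the PI3K and Akt pathway and the Ras and MAP kinase pathway. The receptor encoded by Igf2r binds Igf2 and carries it to lysosomes, and Igf2 and Igf2r are imprinted genes in mouse, with Igf2 active from the paternal copy and Igf2r from the maternal copy in most tissues. The binding proteins hold the ligands outside the cell, lengthen their lifetime and limit their access to the receptor, and proteases that cut the binding proteins release the ligands again.

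Sirt3 mRNA was present in every library. Its level was 6.59, 7.17 and 9.07 TPM in the male WT libraries and 8.88, 10.9 and 11.0 TPM in the male KO libraries. In the female WT libraries it was 7.40, 7.60 and 8.69 TPM, and in the female KO libraries 7.57, 9.06 and 8.19 TPM. The mean Sirt3 level of the labelled knockout libraries was thus not below that of the wild-type libraries of the same sex, and the KO groups are named here by their labels. The table holds mRNA, and neither Sirt3 protein nor its activity was analysed here. The paper shows an immunoblot of Sirt3 and reports impaired mitochondrial respiration in the KO cells of both sexes. The log2 difference, labelled KO minus WT, was 0.39 in male cells (SE 0.14) which missed the threshold of 0.05 (limma, Benjamini-Hochberg adjusted p 0.0981). With all 12 libraries in 1 fit the same difference had an adjusted p of 0.0403, and over its alternatives the limma adjusted p (Benjamini-Hochberg) ran from 0.0403 to 0.239. In female cells the log2 difference was 0.059 (SE 0.11, limma with Benjamini-Hochberg, adjusted p 0.772).

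The label of fibroblast was checked against marker lists. Of 12 fibroblast markers, 11 had a mean of at least 1 TPM, led by Col1a1 with a mean of 3336 TPM, and Lum was under 1 TPM in every library. Of these 11, Col1a1, Col3a1, Pdgfrb and Thy1 rose from WT to labelled KO in both sexes, past the threshold in limma with Benjamini-Hochberg adjustment. Rises of Pdgfra, Dcn and Col1a2 passed in female cells only. Their male log2 differences were 0.25, 0.48 and -0.020 (limma, Benjamini-Hochberg adjusted p 0.131, 0.0842 and 0.783). A difference between the sexes was shown for Col1a2 but not for Pdgfra or Dcn (interaction, limma, Benjamini-Hochberg adjusted p 5.89e-05, 0.0940 and 0.102). Prrx1 fell in male and rose in female cells, Twist1 fell in male cells, and Vim and Fap passed in neither sex. Of 5 epithelial markers, 3 had a mean of at least 1 TPM, with Krt19 the most abundant at 24.0 TPM, and the defining markers Cdh1 and Krt8 were under 1 TPM in every library. The summed epithelial list, mostly Krt19, differed between groups: it was 76.0 to 77.8 TPM in male WT, 7.90 to 8.78 TPM in male KO, 19.7 to 22.7 TPM in female WT and 7.40 to 10.2 TPM in female KO libraries. Of 4 mesothelial markers, 2 had a mean of at least 1 TPM, with Msln the most abundant at 12.1 TPM, and Upk3b was under 1 TPM in every library. The summed mesothelial list was 28.9 to 34.2 TPM in male WT, 5.04 to 7.55 TPM in male KO, 15.5 to 18.4 TPM in female WT and 5.53 to 6.72 TPM in female KO libraries. That sum was mostly Msln, with means of 28.7 TPM in male WT, 1.30 TPM in male KO, 12.6 TPM in female WT and 5.63 TPM in female KO cells. Wt1, the other mesothelial marker with a mean of at least 1 TPM, ran against it in male cells, with means of 1.45 TPM in male WT, 4.83 TPM in male KO, 3.34 TPM in female WT and 0.479 TPM in female KO cells. Of 4 chondrocyte markers Col2a1 and Acan rose in both sexes and Sox9 rose in male cells, while the female Sox9 difference did not pass (limma, Benjamini-Hochberg adjusted p 0.0614) and Col9a1 was under 1 TPM in every library. The summed chondrocyte list had means of 16.0 TPM in male WT, 52.2 TPM in male KO, 20.6 TPM in female WT and 45.7 TPM in female KO cells.

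Some markers of other cell types were absent and others moved with a group. Among leukocyte markers Adgre1 was listed at 0 in every library, Cd68 averaged 6.61 TPM, and Csf1r was 1.25 to 1.64 TPM in male KO libraries and at most 0.346 TPM in the others. Of 5 hepatocyte markers all were under 1 TPM in every library, with Ttr and Hnf4a listed at 0. Of the muscle markers Myf5 was listed at 0 in every library, and Des was 5.71 to 6.60 TPM in female WT libraries and at most 0.344 TPM in the others. Of 4 endothelial markers 3 (Pecam1, Cdh5, Tek) were under 1 TPM in every library, and Kdr had means of 4.77 TPM in female WT, 1.76 TPM in female KO, 1.45 TPM in male WT and 1.23 TPM in male KO cells. The female fall passed for Des and for Kdr, with log2 differences of -2.70 and -1.06 (limma, Benjamini-Hochberg adjusted p 0.000295 and 0.00368). Among adipocyte markers Fabp4 had means of 6.69 TPM in male WT, 1.08 TPM in male KO, 2.13 TPM in female WT and 1.77 TPM in female KO cells, and fell by 1.90 in log2 in male cells (limma, Benjamini-Hochberg adjusted p 0.000356). The other 2 adipocyte markers tested had positive differences that did not pass, Lpl with 0.56 in male and 0.45 in female cells and Pparg with 0.14 and 0.31 (limma, Benjamini-Hochberg adjusted p 0.104, 0.156, 0.304 and 0.207). Among neural markers Sox2 had means of 14.1 TPM in male WT, 1.14 TPM in male KO, 2.20 TPM in female WT and 6.31 TPM in female KO cells, with log2 differences of -2.88 in male and 1.19 in female cells (limma, Benjamini-Hochberg adjusted p 0.000719 and 0.00151). Nes fell in both sexes, by 0.42 in male and 0.71 in female cells, and Tubb3 rose by 0.34 in male cells (limma, Benjamini-Hochberg adjusted p 0.0031, 0.00167 and 0.035). The part of these markers in the results was not tested. The most abundant smooth muscle marker was Acta2 at 1942 TPM, the most abundant neural marker Nes at 52.9 TPM and the most abundant adipocyte marker Pparg at 7.25 TPM, while Myh11, Sox10, Pax6, Adipoq and Plin1 were under 1 TPM in every library. The smooth muscle marker Cnn1 fell in both sexes, by 0.43 and 0.72 in log2 (limma, Benjamini-Hochberg adjusted p 0.00698 and 0.000511), Acta2 rose by 0.24 in female cells (adjusted p 0.00191), and Tagln did not pass between labelled KO and WT. In bulk RNA, fewer cells of a type and less RNA per cell cannot be told apart.

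In male cells 6 of the 10 genes passed the test between labelled KO and WT, 2 higher (Igfbp4, Igfbp7) and 4 lower (Igf2, Igfbp2, Igfbp3, Igfbp5). Over all 12504 genes tested, 21.6% passed in that comparison, 10.7% higher and 10.9% lower. In female cells 2 of the 10 passed, both lower (Igf2, Igfbp4), against 11.5% of all genes tested, with 5.63% higher and 5.84% lower. The test of whether the KO minus WT difference itself differed between the sexes passed for 5 of the 10, with the male difference the more positive for Igf2, Igfbp4 and Igfbp7 and the more negative for Igfbp3 and Igfbp5. For all genes the share was 13%, made of 6.7% with the more positive and 6.33% with the more negative male difference. Between the WT cells 6 of the 10 differed by sex, with 2 higher in male cells (Igfbp2, Igfbp3) and 4 higher in female cells (Igf2, Igf2r, Igfbp5, Igfbp7). That compares with 12.8% of all genes, 6.26% higher in male WT and 6.56% lower. Between the KO cells 5 of the 10 differed, with Igfbp2 and Igfbp4 higher in male cells and Igf2r, Igfbp5 and Igfbp7 higher in female cells, beside 16.6% of all genes (8.17% higher and 8.39% lower in male KO). The counts over all genes were smaller with fewer libraries: 1434 genes passed in female cells, and leaving out any 1 of the 6 female libraries gave 774 to 835. Between WT cells 1603 passed, against 1053 without male WT replicate 3, 1068 without female WT replicate 1 and 1037 without female WT replicate 3, and between KO cells 2070 passed, against 1328 without male KO replicate 3. The comparisons share groups: each WT and KO group enters 2 of the 2-group comparisons and the interaction.

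The sizes of the 10 differences are given beside those of all genes as a description. Unless stated, log2 differences are on log2(TPM+1), so they can be smaller than the log2 of a ratio of mean TPM. The median absolute log2 difference of the 10 genes was 0.64 in male cells, against 0.17 over all genes tested. In female cells it was 0.27 against 0.13. Signed medians were -0.14 in male and -0.051 in female cells. The same median absolute difference was 0.55 between the WT groups (0.13 over all genes) and 0.30 between the KO groups (0.15 over all genes).

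**Figure D1:**
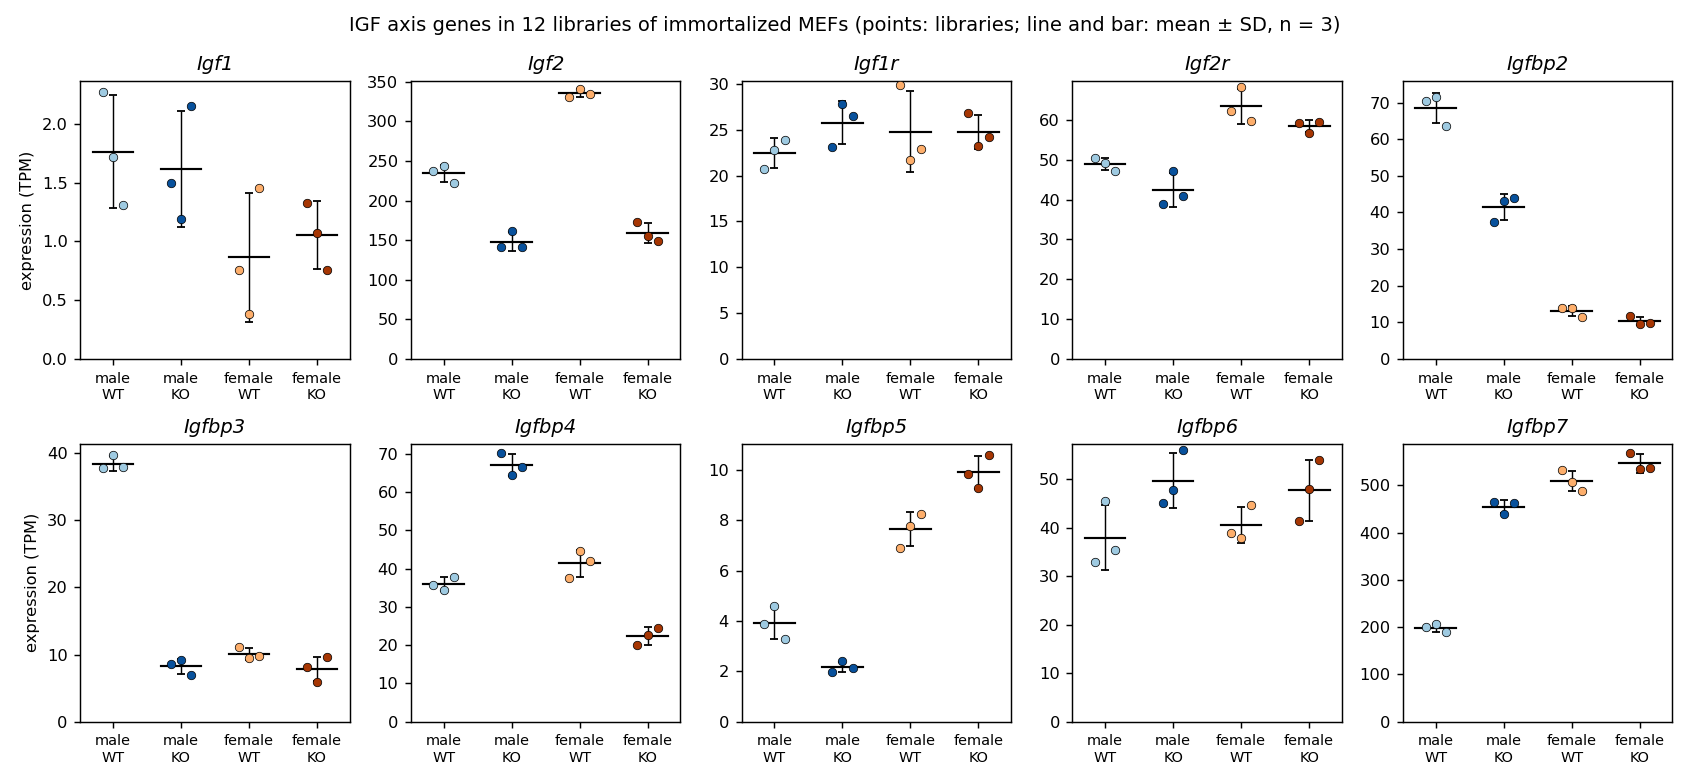
Expression in TPM of the 10 genes in each of the 12 libraries, by labelled group. Each point is 1 library, with the mean and SD of 3.

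Igf2 was the more abundant of the 2 ligand genes in every library. Its gene (ENSMUSG00000048583.16) lies on the minus strand of GRCm38 at chr7:142650766-142666816, 1.77 Mb from Sirt3 and 11.8 kb from Ins2. Igf2 was 237, 244 and 222 TPM in the male WT libraries and 141, 162 and 142 TPM in the male KO libraries. It was 331, 341 and 334 TPM in the female WT libraries and 174, 155 and 149 TPM in the female KO libraries. In both sexes every KO library was below every WT library, the female WT libraries were the highest of all, and the KO groups of both sexes overlapped. Mean Igf2 in male KO cells was 0.632 times that in male WT cells, a log2 difference of -0.66 (SE 0.065), and in limma with the Benjamini-Hochberg method the adjusted p was 0.000627. In female cells the ratio of means was 0.475 and the log2 difference -1.07 (SE 0.057, adjusted p 0.000171 by limma and Benjamini-Hochberg). The fall was thus the deeper in female cells, and the interaction, male minus female difference, was 0.41 (SE 0.092, limma, Benjamini-Hochberg adjusted p 0.0116). Male WT cells had less Igf2 than female WT cells by a log2 difference of -0.52 (SE 0.041, limma, Benjamini-Hochberg adjusted p 0.000428). Between male KO and female KO cells the difference was -0.10, with an adjusted p of 0.421 in limma after Benjamini-Hochberg adjustment. The means of the markers Nes, Cnn1 and Epcam stood in the same order of groups as Igf2 (female WT, male WT, female KO, male KO). The other tested markers of their lists did not: Sox2 and Tubb3 (neural), Acta2 and Tagln (smooth muscle), and Krt18 and Krt19 (epithelial). Krt19, for example, had means of 67.2 TPM in male WT and 14.8 TPM in female WT cells. The part of all these markers in the result was not tested.

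Igf1, the other ligand and the main circulating one after birth, was near the lower limit of testing. Its gene (ENSMUSG00000020053.18) lies on the plus strand at chr10:87858265-87937042. Igf1 ran from 1.31 to 2.27 TPM in male WT, 1.19 to 2.15 TPM in male KO, 0.380 to 1.46 TPM in female WT and 0.753 to 1.33 TPM in female KO libraries. All neighbouring groups overlapped, and the log2 difference of labelled KO from WT was -0.081 in male cells (SE 0.21) and 0.17 in female cells (SE 0.26). Neither passed in limma (Benjamini-Hochberg adjusted p 0.828 and 0.728).

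Genes that overlap a member or lie beside the imprinted members were examined for their own levels. Gm49394, annotated on the same strand across the Igf2 gene, had a mean of 0.537 TPM. Polr2b, a subunit gene of RNA polymerase II on the strand opposite Igfbp7 that overlaps its end, had a mean of 54.5 TPM. Whether the libraries kept strand is not given in the sources used. Of 11 listed neighbours of Igf2 and Igf2r, 8 were in the table and 1 was tested, Cd81, a membrane protein gene 385.9 kb from Igf2. Cd81 did not pass in any of the 5 comparisons (limma, Benjamini-Hochberg), with log2 differences of 0.011 in male and -0.048 in female cells, and its unadjusted p was above 0.05 in each. H19, Igf2os and Airn were not analysed here.

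The promoters of Igf2, Igfbp3, Igfbp4 and Igfbp7 are shown because these 4 genes carried the largest changes between labelled KO and WT. The sequences are from RefSeq on build GRCm38.p6 and run 5′ to 3′ on the strand of the gene, from 250 bases before to 50 bases after an annotated start. Capitals mark matches on either strand to a TATA box (TATAAA), a GC box (GGGCGG) or a CCAAT box (CCAAT). A FoxO motif (GTAAACA) and an AP-1 motif (TGANTCA) were also searched. The Igf2 window is chr7:142657447-142657746, minus strand, the Igfbp3 window chr11:7213874-7214173, minus strand, the Igfbp4 window chr11:99040994-99041293, plus strand, and the Igfbp7 window chr5:77407996-77408295, minus strand.
Igf2: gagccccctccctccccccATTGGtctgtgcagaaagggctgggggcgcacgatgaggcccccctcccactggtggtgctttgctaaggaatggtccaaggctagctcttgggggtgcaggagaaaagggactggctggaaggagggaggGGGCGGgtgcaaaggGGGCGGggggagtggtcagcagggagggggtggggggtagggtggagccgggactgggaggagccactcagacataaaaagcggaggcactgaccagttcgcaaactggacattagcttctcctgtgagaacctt
Igfbp3: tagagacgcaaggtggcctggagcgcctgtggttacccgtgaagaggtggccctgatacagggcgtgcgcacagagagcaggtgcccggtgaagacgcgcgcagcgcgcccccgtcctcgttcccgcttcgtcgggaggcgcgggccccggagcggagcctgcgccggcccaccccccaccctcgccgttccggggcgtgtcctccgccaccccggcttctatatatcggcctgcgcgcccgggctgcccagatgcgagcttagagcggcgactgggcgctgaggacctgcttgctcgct
Igfbp4: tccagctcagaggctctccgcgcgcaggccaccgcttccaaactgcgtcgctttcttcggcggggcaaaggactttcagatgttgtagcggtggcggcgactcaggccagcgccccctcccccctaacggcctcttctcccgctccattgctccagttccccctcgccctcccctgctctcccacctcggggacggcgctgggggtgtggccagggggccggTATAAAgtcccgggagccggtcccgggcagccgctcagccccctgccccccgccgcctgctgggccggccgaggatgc
Igfbp7: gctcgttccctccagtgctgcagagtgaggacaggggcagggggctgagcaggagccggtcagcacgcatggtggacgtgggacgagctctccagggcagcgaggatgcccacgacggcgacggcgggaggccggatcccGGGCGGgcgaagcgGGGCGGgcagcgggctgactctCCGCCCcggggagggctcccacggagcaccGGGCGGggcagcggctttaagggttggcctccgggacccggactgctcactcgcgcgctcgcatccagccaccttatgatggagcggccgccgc
Among these windows, Igf2 held 2 GC boxes and 1 CCAAT box, the latter on the opposite strand. Igfbp3 held none of the motifs. Igfbp4 held 1 TATA box, its first base at position -28 from the start, counted as 0. Igfbp7 held 4 GC boxes. G and C made up 63.3% of the bases in the Igf2 window, 71.7% in Igfbp3, 71.3% in Igfbp4 and 73.3% in Igfbp7. The table held 14 windows for the 10 genes, 4 of them for Igf2, and the FoxO motif was in none of the 14. The Igf2 window shown is the one nearest to the coding exons. Over all 32851 windows of this length the TATA box was in 13.6%, the GC box in 35.7%, the CCAAT box in 37.4%, the FoxO motif in 3.65% and the AP-1 motif in 7.81%. A match describes letters and does not show that a factor binds there.

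Igf1r, the signalling receptor (ENSMUSG00000005533.10, plus strand, chr7:67952827-68233668), was at a similar level in all 4 groups. Its group means were 22.5 ± 1.61 TPM in male WT, 25.8 ± 2.39 TPM in male KO, 24.8 ± 4.40 TPM in female WT and 24.8 ± 1.87 TPM in female KO cells (SD, 3 libraries each), and all groups that were neighbours in level overlapped. The log2 difference of labelled KO from WT was 0.19 in male cells (SE 0.092) and 0.0084 in female cells (SE 0.13). With adjusted p of 0.196 and 0.975 (limma, Benjamini-Hochberg), neither passed.

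Igf2r, the clearing receptor for Igf2 (ENSMUSG00000023830.13, minus strand, chr17:12682406-12769664), differed by sex. It was 50.4, 49.1 and 47.2 TPM in male WT, 39.0, 47.2 and 40.9 TPM in male KO, 62.1, 68.2 and 59.7 TPM in female WT and 59.2, 56.8 and 59.5 TPM in female KO libraries. Every female library was above every male library. The log2 difference, male minus female, was -0.36 between WT cells (SE 0.061, limma, Benjamini-Hochberg adjusted p 0.0100) and -0.46 between KO cells (SE 0.076, adjusted p 0.00763). The means of the smooth muscle marker Tagln and the endothelial marker Kdr stood in the same order of groups as Igf2r, and those of Acta2 and Cnn1 did not. Tagln differed by sex by -0.41 between WT and by -0.41 between KO cells (limma, Benjamini-Hochberg adjusted p 0.000386 and 8.38e-05). The part of these markers in the result was not tested. Between labelled KO and WT, Igf2r did not pass in male cells (-0.21, SE 0.079, limma, Benjamini-Hochberg adjusted p 0.110) or in female cells (-0.11, adjusted p 0.277). Without male KO replicate 2, the highest library of its group, the male log2 difference was -0.29 (limma, Benjamini-Hochberg adjusted p 0.0258), and over all alternatives the adjusted p ran from 0.0258 to 0.257. The ratio of Igf2 to Igf2r TPM within a library, which library scaling cannot alter, was 4.79 ± 0.148 in male WT, 3.50 ± 0.0985 in male KO, 5.31 ± 0.303 in female WT and 2.72 ± 0.214 in female KO cells.

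Other genes of the axis were few in these cells. Of 8 listed ligands, receptors and binding proteins outside the 10, 2 were tested: Insr, the insulin receptor gene, and Igflr1, a receptor gene of the TNF receptor family. Mean Insr was 5.59 TPM in male WT, 5.67 TPM in male KO, 5.55 TPM in female WT and 6.55 TPM in female KO cells. Neither gene passed in any comparison (limma, Benjamini-Hochberg), and at an unadjusted p under 0.05 only Igflr1 did, in 3 of the 5 comparisons (p 0.0187 in female cells). Mean Igflr1 was 2.26 TPM in male WT, 2.17 TPM in male KO, 3.67 TPM in female WT and 0.808 TPM in female KO cells. Its log2 difference was -1.40 in female cells (SE 0.45, limma, Benjamini-Hochberg adjusted p 0.101) and -0.028 in male cells (adjusted p 0.934), and the single female libraries ran from 1.63 to 5.19 TPM in WT and from 0.0150 to 1.77 TPM in KO. Igfbp1, whose gene lies 3.54 kb from Igfbp3 and whose protein is mainly a liver product, was listed at 0 in every library.

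**Figure D2:**
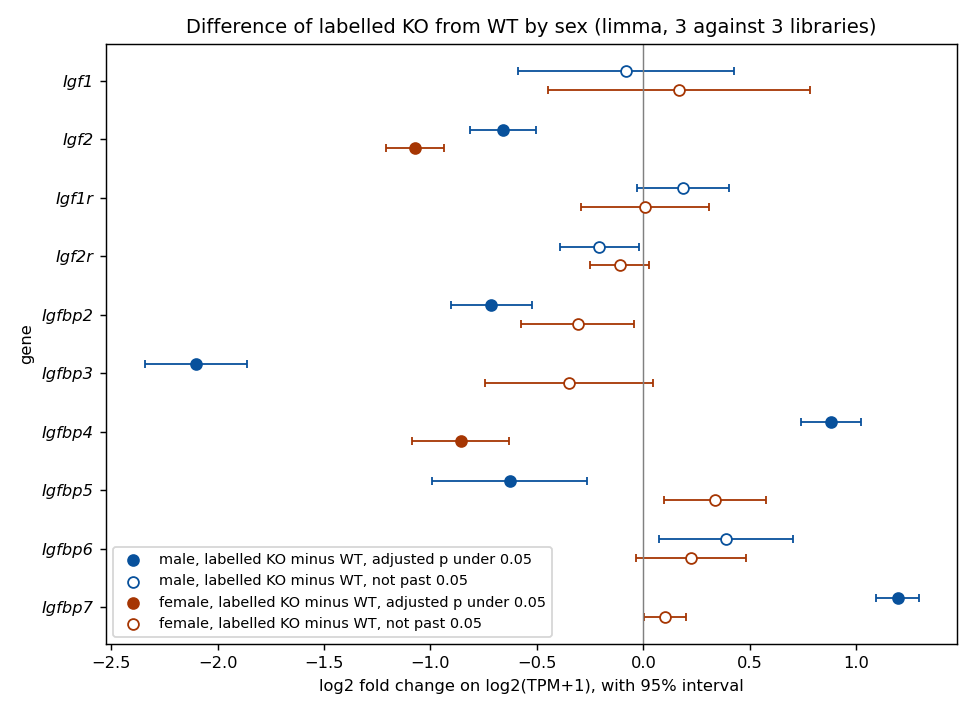
Log2 difference of labelled KO from WT for each of the 10 genes, with 95% intervals, in male and in female cells. Filled points passed an adjusted p of 0.05 in limma with the Benjamini-Hochberg method.

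The binding protein genes Igfbp2 to Igfbp6 share a gene structure: the longest coding transcript of each had 4 coding exons, and it encoded 305, 292, 254, 271 and 238 codons in that order. Igfbp7, which binds the ligands more weakly and is also called an IGFBP-related protein, had 6 coding exons and 313 codons. Igfbp2 (ENSMUSG00000039323.18, plus strand, chr1:72824503-72852474) and Igfbp5 (ENSMUSG00000026185.8, minus strand, chr1:72857932-72874884) are neighbours, 5.46 kb apart and in opposite orientation. Igfbp3 (ENSMUSG00000020427.11) lies on the minus strand at chr11:7206086-7213923, and Igfbp4 (ENSMUSG00000017493.12) on the plus strand at chr11:99041244-99054392. Igfbp6 (ENSMUSG00000023046.6) is on the plus strand at chr15:102144362-102149511, and Igfbp7 (ENSMUSG00000036256.13) on the minus strand at chr5:77349240-77408041.

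Igfbp3, which carries most of the ligands in blood, had the largest change of the 10 genes between labelled KO and WT. It was 37.8, 39.7 and 37.9 TPM in the male WT libraries and 8.55, 9.14 and 7.00 TPM in the male KO libraries. In the female libraries it was 11.2, 9.55 and 9.73 TPM in WT and 8.09, 5.93 and 9.59 TPM in KO. Male WT cells stood alone at the high end, and the 2 KO groups overlapped. Male WT cells had 4.67 times the Igfbp3 of male KO cells, a log2 difference, KO minus WT, of -2.10 (SE 0.10), with an adjusted p of 2.69e-05 in limma with the Benjamini-Hochberg method. The female difference was -0.35 (SE 0.17, adjusted p 0.233, limma and Benjamini-Hochberg) and did not pass. The interaction was -1.75 (SE 0.20, limma, Benjamini-Hochberg adjusted p 0.00013), so the male and female differences were themselves unequal. Between WT cells, male minus female, the log2 difference was 1.82 (SE 0.077, limma, Benjamini-Hochberg adjusted p 2.82e-05), and between KO cells it was 0.072 (adjusted p 0.824). The summed epithelial markers and the mesothelial marker Msln were also highest in male WT cells and lowest in the KO groups, whereas Wt1 was higher in male KO than in male WT cells. The adipocyte marker Fabp4 and the neural marker Sox2 were likewise highest in male WT and lowest in male KO cells, whereas Lpl of the adipocyte list and Tubb3 of the neural list had their lowest means in male WT cells, and the part of all these markers in the Igfbp3 result was not tested.

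Igfbp2, a binding protein of fetal tissues, separated the sexes. It was 70.4, 71.5 and 63.7 TPM in male WT, 37.3, 43.2 and 43.9 TPM in male KO, 13.9, 13.8 and 11.6 TPM in female WT and 11.7, 9.58 and 9.90 TPM in female KO libraries. Every male library was above every female library, and the 2 male groups did not overlap. The WT male mean was 5.23 times the WT female mean, a log2 difference of 2.30 (SE 0.087, limma, Benjamini-Hochberg adjusted p 1.63e-05), and for KO cells the factor was 3.99, a log2 difference of 1.90 (SE 0.10, adjusted p 4.26e-05). Within male cells Igfbp2 fell by 0.71 in log2 (SE 0.080) from WT to labelled KO (limma, Benjamini-Hochberg adjusted p 0.00114). The female difference was -0.31 (SE 0.11, limma, Benjamini-Hochberg adjusted p 0.131). A difference between the sexes was not shown for that change, with an interaction of -0.40 (SE 0.14, limma, Benjamini-Hochberg adjusted p 0.0814). The summed epithelial markers moved with Igfbp2 within the male pair. For the adipocyte marker Pparg and the fibroblast markers Col3a1 and Pdgfra, every male library was likewise above every female library. Other fibroblast markers differed in this (limma, Benjamini-Hochberg). Col1a1 passed as higher in male cells between WT and between KO groups, and Twist1 between WT groups only. Prrx1 and Col1a2 were higher in male WT but lower in male KO cells, and Dcn was lower in male KO cells. Thy1, Vim, Pdgfrb and Fap passed in neither comparison by sex. Mean Pparg was 9.48 TPM in male WT, 10.6 TPM in male KO, 3.90 TPM in female WT and 5.07 TPM in female KO cells. Pparg passed by sex between WT and between KO cells (limma, Benjamini-Hochberg adjusted p 0.00169 and 0.00165). Lpl of the adipocyte list had lower means in male than in female cells of the same genotype. Fabp4 of that list had a higher mean in male than in female WT cells. Its mean in male KO cells, 1.08 TPM, was below the 1.77 TPM of female KO cells. What part these markers had in the result was not tested.

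Igfbp4, a binding protein that inhibits ligand action and is cut by the protease Pappa, changed in opposite directions in the 2 sexes. It was 35.7, 34.4 and 37.9 TPM in male WT and 70.1, 64.5 and 66.6 TPM in male KO libraries, and 37.6, 44.5 and 42.1 TPM in female WT and 20.0, 22.6 and 24.6 TPM in female KO libraries. The WT groups of both sexes overlapped, with all male KO libraries above them and all female KO libraries below them. The ratio of means, KO to WT, was 1.86 in male cells, a log2 difference of 0.88 (SE 0.059, limma, Benjamini-Hochberg adjusted p 0.000106). In female cells the ratio was 0.541, a log2 difference of -0.86 (SE 0.095, limma, Benjamini-Hochberg adjusted p 0.00275). The interaction was 1.74 (SE 0.11, limma, Benjamini-Hochberg adjusted p 2.04e-06). Between WT cells the log2 difference by sex, male minus female, was -0.19 (SE 0.075, limma, Benjamini-Hochberg adjusted p 0.148), and between KO cells it was 1.54 (SE 0.082, adjusted p 4.21e-05). The mesothelial marker Wt1 had the same order of group means as Igfbp4. Msln, the most abundant marker of that list, did not. Its mean was 28.7 TPM in male WT and 1.30 TPM in male KO cells, where Igfbp4 rose. The part of these markers in the result was not tested.

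Igfbp5, a binding protein that associates with extracellular matrix, had the lowest 12-library mean of the 6 and was higher in female cells. In female KO cells its mean was above that of Igfbp3. It was 3.88, 4.60 and 3.29 TPM in male WT, 1.99, 2.41 and 2.12 TPM in male KO, 6.91, 7.78 and 8.25 TPM in female WT and 9.84, 9.30 and 10.6 TPM in female KO libraries. None of the 4 groups overlapped with another, in the order female KO, female WT, male WT and male KO from high to low. Between KO cells the log2 difference, male minus female, was -1.78 (SE 0.12, limma, Benjamini-Hochberg adjusted p 0.000107), and between WT cells it was -0.82 (SE 0.14, adjusted p 0.00992). The smooth muscle marker Acta2 had the same order of group means, with 1667 TPM in male WT and 1665 TPM in male KO cells, and Tagln and Cnn1 did not. Acta2 differed by sex by -0.53 between KO and by -0.29 between WT cells (limma, Benjamini-Hochberg adjusted p 3.89e-05 and 0.000455). The part of these markers in the result was not tested. In male cells Igfbp5 fell from WT to labelled KO with a ratio of mean TPM of 0.554. On log2(TPM+1), where the added 1 narrows the differences of low genes, the difference was -0.63 (SE 0.15, limma, Benjamini-Hochberg adjusted p 0.0277). This call was lost without male WT replicate 1 (limma, Benjamini-Hochberg adjusted p 0.0749), male WT replicate 2 (0.0813), male KO replicate 1 (0.0798) or male KO replicate 3 (0.0775), when the log2 difference was -0.63, -0.53, -0.58 and -0.62. It was also lost with no filter on low values (0.0577), and it passed in 9 of 14 alternatives, with limma adjusted p (Benjamini-Hochberg) from 0.0026 to 0.0813. In female cells the difference was 0.34 (SE 0.10, limma, Benjamini-Hochberg adjusted p 0.0818), which did not pass. The interaction was -0.96 (SE 0.17) and passed (limma, Benjamini-Hochberg adjusted p 0.00295).

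Igfbp6, a binding protein with a preference for Igf2, did not pass in any of the 5 comparisons. Its group means were 38.0 ± 6.67 TPM in male WT, 49.7 ± 5.68 TPM in male KO, 40.6 ± 3.69 TPM in female WT and 47.7 ± 6.31 TPM in female KO cells (SD, 3 libraries each), and neighbouring groups overlapped. The male log2 difference was 0.39 (SE 0.13, limma, Benjamini-Hochberg adjusted p 0.0847). That difference passed with all 12 libraries in 1 fit (adjusted p 0.0495, limma and Benjamini-Hochberg) and without male WT replicate 2, the highest WT library (0.52, adjusted p 0.0245), and its adjusted p ran from 0.0245 to 0.223 over the alternatives. The female difference was 0.23 (SE 0.11, limma, Benjamini-Hochberg adjusted p 0.238). At an unadjusted p under 0.05, Igfbp6 differed in male cells alone among the comparisons, and the interaction for it had an adjusted p of 0.663 (limma, Benjamini-Hochberg).

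Igfbp7, a secreted protein of the extracellular matrix, was the most abundant of the 10 genes by mean TPM over the 12 libraries, although in each male WT library Igf2 was above it (means of 234 and 199 TPM). It was 200, 206 and 190 TPM in the male WT libraries and 464, 440 and 462 TPM in the male KO libraries. In the female libraries it was 532, 508 and 488 TPM in WT and 569, 535 and 536 TPM in KO. Male WT cells stood alone at the low end, the mirror image of Igfbp3. Male KO cells had 2.29 times the Igfbp7 of male WT cells, a log2 difference of 1.19 (SE 0.042, limma, Benjamini-Hochberg adjusted p 8.40e-06). The female difference was 0.10 (SE 0.042, limma, Benjamini-Hochberg adjusted p 0.171), and the interaction was 1.09 (SE 0.060, adjusted p 5.95e-07). Between WT cells the log2 difference, male minus female, was -1.35 (SE 0.045, limma, Benjamini-Hochberg adjusted p 1.14e-05), and between KO cells it was -0.26 (SE 0.038, adjusted p 0.0042). Over the 12 libraries the Pearson r of Igfbp3 with Igfbp7 on log2(TPM+1) was -0.96, a description over 4 groups that stand apart and no test. The epithelial sum was highest where Igfbp7 was lowest. The chondrocyte marker Col2a1 was, like Igfbp7, lowest in male WT cells, whereas Acan and Sox9 of that list had their lowest means in female WT cells. Col2a1 rose by 3.00 in log2 in male and by 1.26 in female cells (limma, Benjamini-Hochberg adjusted p 1.33e-05 and 0.00387). The part of these markers in the result was not tested.

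**Figure D3:**
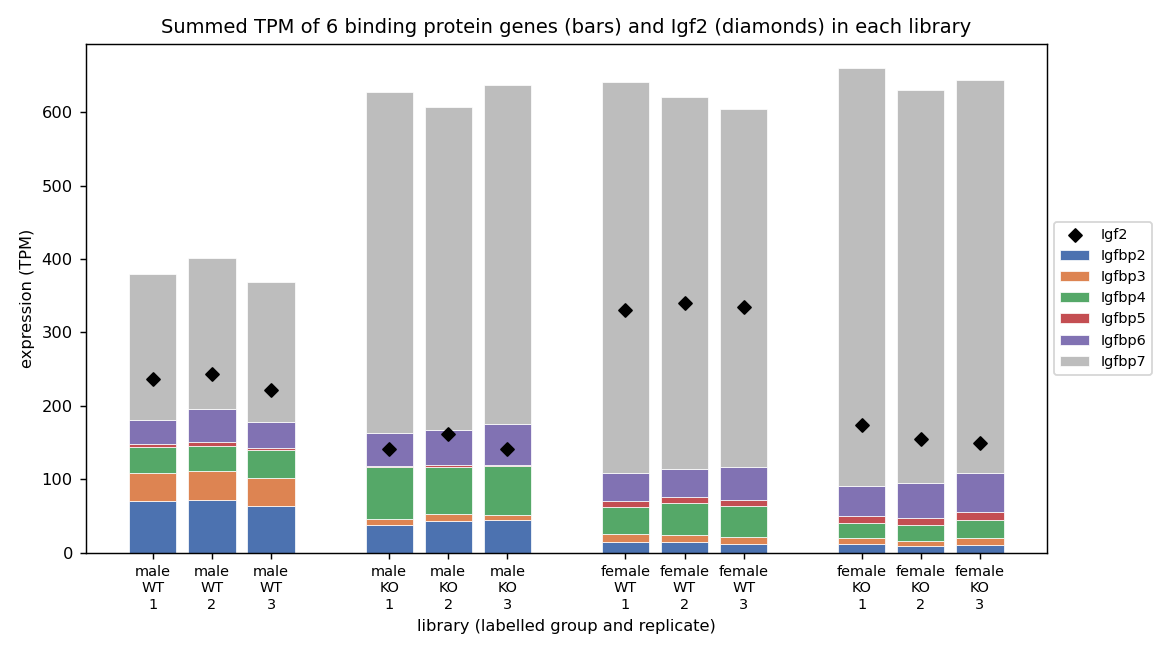
Stacked TPM of the 6 binding protein genes in each library, with Igf2 as diamonds. The male WT libraries had the smallest sums and the largest parts of Igfbp2 and Igfbp3.

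Because TPM are values per length, the 6 binding protein genes can be added within a library. The sum was 383 ± 16.8 TPM in male WT, 624 ± 15.8 TPM in male KO, 622 ± 18.2 TPM in female WT and 645 ± 15.0 TPM in female KO cells (SD, 3 libraries each), with male WT below all the others. Igfbp7 made up 51.8% of the sum in male WT, 73.0% in male KO, 81.8% in female WT and 84.7% in female KO cells. Without Igfbp7 the order was different: Igfbp2 to Igfbp6 summed to 185 TPM in male WT, 169 TPM in male KO, 113 TPM in female WT and 98.3 TPM in female KO cells. Within that smaller sum the leading gene was not the same in every group. In male WT cells Igfbp2 led with 37.1%, and in male KO cells Igfbp4 led with 39.8%. In female WT cells Igfbp4 (36.7%) and Igfbp6 (35.9%) were close, and in female KO cells Igfbp6 led with 48.5%. The ratio of Igf2 to the sum of Igfbp2 to Igfbp6 was 1.27 ± 0.0385 in male WT, 0.880 ± 0.0821 in male KO, 2.97 ± 0.0927 in female WT and 1.63 ± 0.268 in female KO cells. In each sex it was lower in every KO library than in every WT library, and each female group was above both male groups; these are mRNA ratios with no test, and protein was not measured here.

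Proteases and inhibitors that govern the binding proteins changed in several places. Of 10 listed genes 8 were tested, and in male cells 4 rose and 1 fell, 5 of 8 beside 21.6% of all genes tested, with a median log2 difference of 0.085 against -0.015 over all genes tested. Mmp2, a matrix metalloproteinase able to cut binding proteins, was 25.6, 25.4 and 25.9 TPM in male WT and 144, 151 and 151 TPM in male KO libraries, beside 49.3, 51.9 and 52.1 TPM in female WT and 40.2, 43.8 and 46.1 TPM in female KO libraries. Its log2 difference was 2.49 in male cells (SE 0.045, limma, Benjamini-Hochberg adjusted p 1.01e-06) and -0.23 in female cells (adjusted p 0.0573), with an interaction of 2.72 (adjusted p 2.11e-09). Pappa, the protease that cuts Igfbp4, was 2.47, 2.46 and 2.82 TPM in male WT and 6.62, 7.56 and 6.90 TPM in male KO libraries, and both female groups lay between 5.63 and 7.16 TPM. Pappa rose by 1.16 in male cells (SE 0.12, limma, Benjamini-Hochberg adjusted p 0.000726), against -0.10 in female cells (adjusted p 0.610) and an interaction of 1.27 (adjusted p 0.000178). Stc2, a secreted inhibitor of Pappa, was 7.38, 7.70 and 8.88 TPM in male WT and 12.1, 13.8 and 12.2 TPM in male KO libraries, and 8.05, 6.59 and 7.16 TPM in female WT and 4.51, 2.63 and 4.15 TPM in female KO libraries. It rose by 0.61 in male cells (SE 0.11, limma, Benjamini-Hochberg adjusted p 0.00741), with an interaction of 1.43 (adjusted p 0.000871). So the substrate Igfbp4, the protease Pappa and the inhibitor Stc2 were all higher in male KO than in male WT cells at the level of mRNA.

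In female cells 2 of the 8 protease and inhibitor genes rose (Htra1, Mmp14) and 2 fell (Stc2, Ctsd), 4 of 8 beside 11.5% of all genes tested, with a median log2 difference of -0.0062 against -0.023 over all genes. Stc2 fell by 0.81 (SE 0.18, limma, Benjamini-Hochberg adjusted p 0.0336). That call was lost without any 1 of the female WT libraries, without female KO replicate 2 or 3, and with no filter, with limma adjusted p (Benjamini-Hochberg) from 0.00415 to 0.110 over 14 alternatives and a log2 difference of -0.63 to -0.88 where 1 of these libraries was left out. Htra1, a secreted serine protease that can cut Igfbp5, moved in opposite directions: it was 93.4, 91.3 and 91.2 TPM in male WT and 60.5, 59.6 and 70.1 TPM in male KO libraries, and 42.3, 39.9 and 39.1 TPM in female WT and 70.7, 69.8 and 62.9 TPM in female KO libraries. The log2 difference was -0.53 in male cells (SE 0.068, limma, Benjamini-Hochberg adjusted p 0.0021) and 0.73 in female cells (SE 0.060, adjusted p 0.000832), with an interaction of -1.26 (adjusted p 5.03e-06). Mmp14, a membrane-bound metalloproteinase, rose by 0.24 in female cells (SE 0.033, limma, Benjamini-Hochberg adjusted p 0.00661) and by 0.12 in male cells (SE 0.036, adjusted p 0.0484). Ctsd, a lysosomal protease, fell by 0.13 in female cells (SE 0.028, limma, Benjamini-Hochberg adjusted p 0.0311), a call that held in 6 of 14 alternatives (adjusted p 0.00689 to 0.138) and was lost without female WT replicate 1 or 3 or any 1 of the female KO libraries, and with median-of-ratios scaling, no mean-variance trend or the replicate number fitted as a block (the replicate block below). The interaction passed for 5 of the 8 genes: Mmp2, Pappa, Stc2, Htra1 and Ctsd (0.18 for Ctsd, limma, Benjamini-Hochberg adjusted p 0.00849), beside 13% of all genes. By sex, 3 of the 8 differed between WT cells (Htra1 higher in male, Pappa and Mmp2 lower) and 3 between KO cells (Stc2 and Mmp2 higher in male, Adam12 lower), beside 12.8% and 16.6% of all genes. The Adam12 call (-0.26, limma, Benjamini-Hochberg adjusted p 0.0386) was lost without any 1 of the 6 KO libraries, with no filter, no mean-variance trend or the replicate block, and held in 5 of 14 alternatives (adjusted p 0.00842 to 0.114). Klk1 was listed at 0 in every library.

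**Figure D4:**
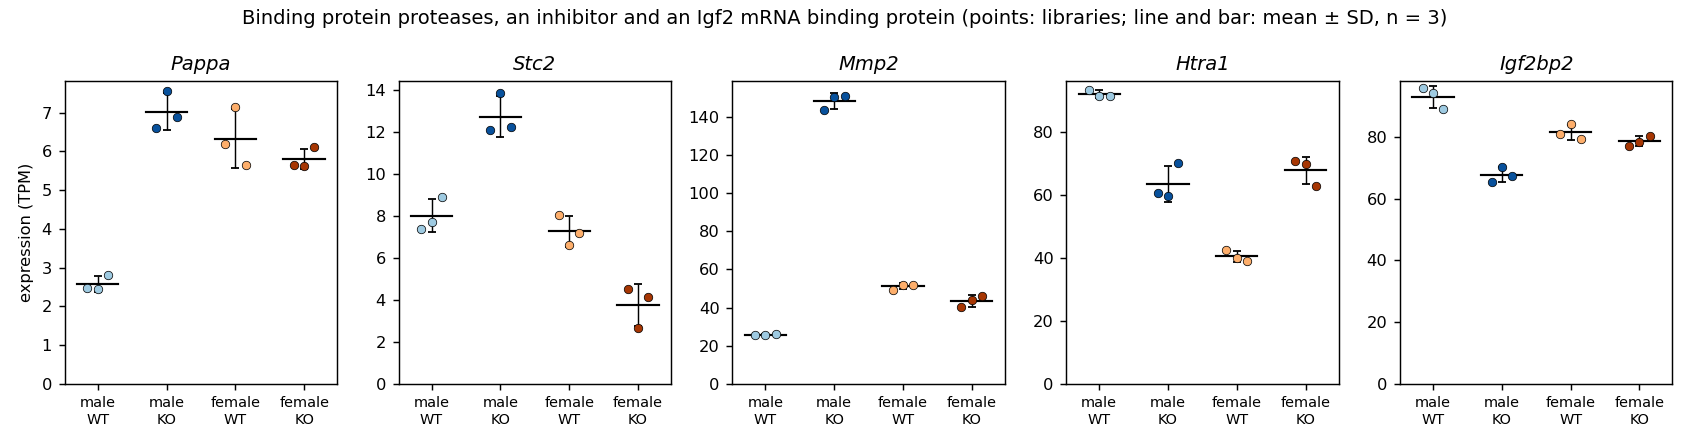
TPM of Pappa, Stc2, Mmp2 and Htra1, and of the mRNA-binding protein gene Igf2bp2, by labelled group. Each point is 1 library, with the mean and SD of 3.

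The Igf2 mRNA-binding proteins bind Igf2 transcripts and affect their stability and translation. All 3 genes were tested. In male cells 2 passed, where 21.6% of all genes did, and in female cells 0 passed, where 11.5% did (limma, Benjamini-Hochberg). None of the 3 had an unadjusted limma p under 0.05 in female cells. Igf2bp2 was 95.9, 94.2 and 89.1 TPM in male WT and 65.4, 70.3 and 67.4 TPM in male KO libraries, and both female groups lay between 77.2 and 84.1 TPM. It fell by 0.45 in male cells (SE 0.050, limma, Benjamini-Hochberg adjusted p 0.00108), with -0.050 in female cells (adjusted p 0.462) and an interaction of -0.40 (adjusted p 0.000993). Igf2bp3 rose by 0.38 in male cells (SE 0.088, limma, Benjamini-Hochberg adjusted p 0.0225), but this held in 8 of 14 alternatives (adjusted p 0.00995 to 0.0791) and was lost without any 1 of the male WT libraries or male KO replicate 2 or 3, or with the replicate block. By sex, Igf2bp3 was lower in male than in female WT cells by a log2 difference of -0.80 (SE 0.094, limma, Benjamini-Hochberg adjusted p 0.00215).

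Signalling genes downstream of the receptors were taken in 3 lists. Of 15 listed proximal genes, adaptors and their inhibitors, 13 were tested. In male cells 1 rose (Socs3) and 1 fell (Ptpn11), 2 of 13 beside 21.6% of all genes. In female cells 0 of 13 passed in limma with Benjamini-Hochberg adjustment, beside 11.5% of all genes. Of the 13, 3 (Irs2, Sos1 and Socs3) had an unadjusted limma p under 0.05 in female cells. Socs3, an inhibitor of cytokine and insulin receptor signalling, rose by 0.75 in male cells (SE 0.16, limma, Benjamini-Hochberg adjusted p 0.0182), which held in 8 of 14 alternatives (adjusted p 0.0011 to 0.0782) and was lost without male WT replicate 1 or 3 or any 1 of the male KO libraries, or with no filter. Ptpn11, a phosphatase that promotes Ras signalling, fell by 0.22 (limma, Benjamini-Hochberg adjusted p 0.0181), which also held in 8 of 14 alternatives (adjusted p 0.0134 to 0.0597) and was lost without male WT replicate 1 or 2 or male KO replicate 1 or 2, or with no mean-variance trend or the replicate block. Of 29 PI3K, Akt and mTOR genes 28 were tested; 2 rose and 4 fell in male cells, and 2 rose and 2 fell in female cells, with median log2 differences of -0.034 and -0.036 beside -0.015 and -0.023 over all genes. The 6 of 28 in male and 4 of 28 in female cells are close to the 21.6% and 11.5% of all genes called. Eif4ebp1, the translation inhibitor that mTOR phosphorylates, rose by 0.44 in male cells (SE 0.046, limma, Benjamini-Hochberg adjusted p 0.000751), and Phlpp1, an Akt phosphatase, fell by 0.39 (SE 0.073, adjusted p 0.0101). Rictor, a subunit of mTOR complex 2, rose by 0.48 in male cells (SE 0.10, limma, Benjamini-Hochberg adjusted p 0.0128); without male WT replicate 3 the difference was 0.46 with an adjusted p of 0.0507, the highest of a range that began at 0.0012. The other 3 male genes that fell were Deptor (-0.60), Pik3r1 (-0.32) and Rps6 (-0.12), and for Deptor the call was lost without any 1 of the male libraries or with the replicate block (limma, Benjamini-Hochberg adjusted p 0.00379 to 0.103 over 13 alternatives). With 0.1 in place of 1 added before the log, the Deptor difference was -1.05. In female cells the 4 calls had log2 differences of 0.16 for Akt1, 0.26 for Eif4ebp2, -0.36 for Tsc2 and -0.26 for Mlst8, and none held throughout. The Eif4ebp2 and Mlst8 calls were lost without any 1 of the 6 female libraries, the Akt1 call without female WT replicate 2 or 3 or female KO replicate 1 or 3, and the Tsc2 call without replicate 1 or 3 of either female group. All 4 were also lost with the replicate block, Eif4ebp2, Akt1 and Tsc2 with no filter, Eif4ebp2 and Akt1 with no mean-variance trend, and Mlst8 with median-of-ratios scaling, quantile normalization or all 12 libraries in 1 fit. Of 14 alternatives the call held in 7 for Akt1, 5 for Eif4ebp2, 8 for Tsc2 and 4 for Mlst8. Over their alternatives the limma adjusted p (Benjamini-Hochberg) reached 0.107 for Akt1, 0.108 for Eif4ebp2, 0.0781 for Tsc2 and 0.140 for Mlst8.

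All 8 listed Ras and MAP kinase genes were tested; 1 rose in male cells (Mapk3), and 1 fell in female cells (Araf), beside 21.6% and 11.5% of all genes. Mapk3, the MAP kinase gene that encodes ERK1, was 75.1 to 79.3 TPM in male WT and 100 to 104 TPM in male KO libraries, and 90.2 to 95.5 TPM in female WT and 78.0 to 89.3 TPM in female KO libraries. It rose by 0.39 in male cells (SE 0.042, limma, Benjamini-Hochberg adjusted p 0.000991), with an interaction of 0.54 (adjusted p 0.000372). Araf, a Raf kinase gene, had a female log2 difference of -0.26 (limma, Benjamini-Hochberg adjusted p 0.0384), which held in 7 of 14 alternatives (adjusted p 0.0131 to 0.114) and was lost without any 1 of the female WT libraries or female KO replicate 1 or 2, or with no filter or no mean-variance trend.

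FoxO factors are kept out of the nucleus by Akt, and many of their known targets serve growth arrest, atrophy or antioxidant defence. Of 18 listed factors and targets 16 were tested; 3 rose and 0 fell in male cells, and 1 rose and 2 fell in female cells, with medians of 0.11 and 0.030 beside -0.015 and -0.023 over all genes. In male cells 3 of 16 is below the 21.6% of all genes called, and in female cells 3 of 16 stands beside 11.5%. Gadd45a, a growth arrest gene, was 26.1 to 30.6 TPM in male WT and 51.4 to 58.8 TPM in male KO libraries, and from 21.5 to 32.3 TPM in the female libraries. It rose by 0.96 in male cells (SE 0.080, limma, Benjamini-Hochberg adjusted p 0.000301), with an interaction of 0.91 (adjusted p 0.00767). Txnip, which binds thioredoxin and limits glucose uptake, rose by 0.56 in male cells (SE 0.10, limma, Benjamini-Hochberg adjusted p 0.00832). Cat, the gene of catalase, rose by 0.26 (limma, Benjamini-Hochberg adjusted p 0.0303), which held in 8 of 14 alternatives (adjusted p 0.00666 to 0.102) and was lost without male WT replicate 2 or 3 or any 1 of the male KO libraries, or with the replicate block. Fbxo32, a ubiquitin ligase gene of muscle wasting, was 1.85 to 2.68 TPM in female WT and 9.26 to 9.32 TPM in female KO libraries. It rose by 1.61 in female cells (SE 0.13, limma, Benjamini-Hochberg adjusted p 0.00088), against 0.12 in male cells (adjusted p 0.596) and an interaction of -1.49 (adjusted p 0.000256). The female genes that fell were Klf6 (-0.35, limma, Benjamini-Hochberg adjusted p 0.00856) and Bcl6 (-0.32, adjusted p 0.0435), the latter lost without any 1 of the female libraries (adjusted p 0.0208 to 0.124 over the alternatives). That Bcl6 call held in 5 of 14 alternatives and was also lost with median-of-ratios scaling, quantile normalization or the replicate block. The factor genes Foxo1, Foxo3 and Foxo4 did not pass between labelled KO and WT in either sex.

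The last list held the CCN family, matricellular proteins once grouped with the binding proteins, and Esm1, a secreted proteoglycan gene outside that family. Of its 7 genes 6 were tested; 2 rose and 2 fell in male cells, and 2 rose and 3 fell in female cells, Esm1 being 1 of those that fell in each sex, beside 21.6% and 11.5% of all genes called. Ccn5, which lacks the C-terminal domain of its relatives, was 184, 196 and 173 TPM in male WT and 291, 286 and 298 TPM in male KO libraries, and 16.9, 15.3 and 15.1 TPM in female WT and 97.0, 90.0 and 103 TPM in female KO libraries. It rose in both sexes, by 0.66 in male cells (SE 0.051, limma, Benjamini-Hochberg adjusted p 0.000199) and by 2.54 in female cells (SE 0.069, adjusted p 1.43e-05), with an interaction of -1.88 (adjusted p 1.98e-07). Ccn4 also rose in both, by 0.58 and 0.34 (limma, Benjamini-Hochberg adjusted p 0.000345 and 0.0022). Ccn2, known as connective tissue growth factor, fell in both, by 0.37 and 0.61 (limma, Benjamini-Hochberg adjusted p 0.000623 and 3.23e-05). Ccn1 fell by 0.31 in female cells (limma, Benjamini-Hochberg adjusted p 0.000912) and had a difference of 0.059 in male cells (adjusted p 0.297), with an interaction of 0.37 (adjusted p 0.000181). Esm1 was 2.71 to 4.64 TPM in male WT and 0 to 0.162 TPM in male KO libraries, and fell by 2.06 on log2(TPM+1) (SE 0.21, limma, Benjamini-Hochberg adjusted p 0.000742). In female cells Esm1 fell by 0.95 (limma, Benjamini-Hochberg adjusted p 0.0265), which held in 7 of 13 alternatives (adjusted p 0.00983 to 0.0834) and was lost without female WT replicate 2 or 3 or any 1 of the female KO libraries, or with the replicate block. The size of the Esm1 differences depended on the value added before the log: with 0.1 in place of 1 they were -4.50 in male and -1.84 in female cells, with an interaction of -2.66 in place of -1.11.

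The same lists were counted for differences by sex. The interaction passed for 1 of 13 proximal genes (Ptpn11), 4 of 28 PI3K, Akt and mTOR genes, 2 of 8 Ras and MAP kinase genes, 4 of 16 FoxO genes and 5 of 6 genes of the list of the CCN family and Esm1, beside 13% of all genes tested. Outside that last list, the calls for Ptpn11, Pik3r1, Map2k1 and Txnip were lost without any 1 of at least 8 of the 12 libraries. Eif4ebp1 had an interaction of 0.41 (limma, Benjamini-Hochberg adjusted p 0.000603), Rictor of 0.59 (adjusted p 0.00627) and Phlpp1 of -0.53 (adjusted p 0.00211). Between WT cells 0 of 13 proximal genes passed in limma with Benjamini-Hochberg adjustment (4 of the 13, Shc1, Grb14, Ptpn11 and Socs1, had an unadjusted p under 0.05), and 3 of 28, 2 of 8, 3 of 16 and 5 of 6 genes of the other lists did, beside 12.8% of all genes. The WT calls of the lists included Inppl1, an inositol phosphatase gene (-0.26, limma, Benjamini-Hochberg adjusted p 0.0212, held in 7 of 14 alternatives), Hras (0.19, adjusted p 0.0239, 9 of 14) and Cdkn1b, a cell cycle inhibitor gene (0.32, adjusted p 0.0172, 12 of 14). Ccn3 of the CCN family was higher in male cells between WT groups by 0.67 and between KO groups by 0.97 (limma, Benjamini-Hochberg adjusted p 0.0072 and 0.00313), in all 14 alternatives. The largest difference between WT cells in these lists was that of Ccn5, higher in male than in female WT cells by 3.47 in log2 (SE 0.066, limma, Benjamini-Hochberg adjusted p 1.52e-06). Of the 8 WT differences outside the CCN and Esm1 list, Mapk3 alone held in every alternative. Between KO cells the counts were 1 of 13, 2 of 28, 1 of 8, 2 of 16 and 5 of 6, beside 16.6% of all genes. The 1 of 8 was Mapk3, 0.27 higher in male cells (limma, Benjamini-Hochberg adjusted p 0.0211), which held in 9 of 14 alternatives (adjusted p 0.00275 to 0.0773) and was lost without male KO replicate 1 or 3 or female KO replicate 1, or with no filter or no mean-variance trend. There Socs3 (0.56), Eif4ebp1 (0.38) and Gadd45a (1.03) were higher in male cells, and Phlpp1 (-0.53) and Fbxo32 (-1.10) lower, each past the threshold in limma with Benjamini-Hochberg adjustment and in every alternative that gave a value.

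Genes whose level followed a binding protein most closely were sought by Pearson r of log2(TPM+1) over the 12 libraries, for the 4 binding proteins with the widest range of group means. The measure is a description: the 12 libraries form 4 groups, and r has no p here. For Igfbp3 the closest were Epg5 (0.984), Apln (0.983) and Sox21 (0.977). Mean Apln, a secreted peptide gene, was 16.6 TPM in male WT and 6.00 TPM in male KO, 6.34 TPM in female WT and 5.63 TPM in female KO cells. For Igfbp2 they were Rassf2 (0.986), 2010111I01Rik (0.983) and H1f0 (0.982). For Igfbp5 they were Loxl2 (0.983), Adcyap1r1 (0.981) and Gsto1 (0.981). The gene nearest to Igfbp4 was Mt2 (0.973), a metallothionein, with means of 133 TPM in male WT, 265 TPM in male KO, 147 TPM in female WT and 99.0 TPM in female KO cells, followed by Ftl1 (0.971) and Arc (0.963).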

How the data were processed

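The authors deposited TPM per gene, quantified with Salmon on GRCm38, and every column of values was used. Identifiers were matched to symbols in the GENCODE M21 annotation, where 99.4% were found. Tests were run in limma 3.58.1 under R 4.3.3 with a trend of variance on level, on log2(TPM+1) of the 12504 genes whose 12-library mean reached 1 TPM. Each 2-group comparison used its 6 libraries, the interaction of sex and genotype used all 12, and a call was a Benjamini-Hochberg adjusted p under 0.05 over all genes tested. The 10 genes, the 9 lists and the marker lists were chosen with earlier results of these data known. The 9 lists held 109 entries, with Ins2 entered more than once, and some genes of the lists as first fixed were not analysed. From each list up to 4 called genes per comparison with the largest absolute difference were named, with Sirt3 and, for 4 of the 10 genes, the 3 genes of most similar pattern. Genes named outside this rule (such as Mmp14 in male cells, Rps6 and the FoxO factors) were chosen after their values were seen, and no alternatives were run for them. Alternatives were a pseudocount of 0.1, no filter or one at 5 TPM, quantile or median-of-ratios scaling, no trend, 1 fit of all libraries, a replicate block, and leaving out each library.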

Additional observations from a re-analysis of the deposited data

Results flagged for a closer look

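For each gene named here the difference of labelled KO from WT was itself unequal between male and female cells by the interaction test in limma with Benjamini-Hochberg adjustment. Values are the male difference less the female difference on log2(TPM+1).

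Among the insulin-like growth factor genes the value was 0.41 for Igf2, -1.75 for Igfbp3, 1.74 for Igfbp4, -0.96 for Igfbp5 and 1.09 for Igfbp7. These 5 held in all 19 alternatives.

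Among proteases and inhibitors it was 2.72 for Mmp2, 1.43 for Stc2, 1.27 for Pappa and -1.26 for Htra1. The Igf2 mRNA-binding proteins gave 0.46 for Igf2bp3 and -0.40 for Igf2bp2.

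Among signalling genes it was -0.29 for Ptpn11, 0.59 for Rictor, -0.53 for Phlpp1, 0.41 for Eif4ebp1 and -0.42 for Pik3r1. The Ras and MAP kinase genes gave 0.54 for Mapk3 and 0.22 for Map2k1.

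Among FoxO targets it was -1.49 for Fbxo32, 0.91 for Gadd45a, 0.57 for Bcl6 and 0.53 for Txnip. The CCN family gave -1.88 for Ccn5, 0.37 for Ccn1 and 0.24 for Ccn4, and the proteoglycan gene Esm1 gave -1.11.

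Some of these calls did not hold throughout. Map2k1 and Txnip passed in 5 of 19 alternatives each, Igf2bp3 and Ptpn11 in 8 of 19, Pik3r1 in 10 of 19 and Esm1 in 11 of 18, and most of the losses came with 1 library left out. Ccn4 was lost without female WT replicate 3 only, where the limma adjusted p (Benjamini-Hochberg) was 0.0506, in a range from 0.0139 to 0.0506.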

How the results depend on the processing

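The number of the 10 genes called was within 1.5 times its value in every alternative, and no called difference of a member changed sign under any scaling. No scaling moved the median of all genes by 0.1 in log2. Over the whole table, leaving out 1 library gave 774 to 835 genes called in female cells in place of 1434, 1037 to 1243 between WT cells in place of 1603, and 1328 to 1824 between KO cells in place of 2070, with fewer samples in each fit. With the replicate number as a block, 670 genes were called in female cells and all member counts were unchanged (6, 2, 5, 6 and 5). After the group means were removed, the Pearson r of libraries with the same number ran from -0.057 to 0.078, so the labels give a shared number and the values show no pairing. Among the other listed genes the block removed 22 calls. The calls removed were, in male cells, Igf2bp3, Ptpn11, Deptor and Cat; in female cells, Ctsd, Tsc2, Mlst8, Eif4ebp2, Akt1, Bcl6 and Esm1; for the interaction, Igf2bp3, Ptpn11 and Map2k1; between WT cells, Igf2bp2, Tsc2, Akt1, Foxo1 and Klf6; between KO cells, Igf2bp3, Igf2bp2 and Adam12. Median-of-ratios scaling split the female calls into 841 higher and 577 lower, against 704 and 730; the cause was not tested.

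Some differences that had not passed changed sign when 1 library was left out, with fewer samples in each fit. Igf1 ran from -0.22 to 0.047 in male and -0.029 to 0.39 in female cells. Igf1r ran from -0.077 to 0.14 in female cells and -0.21 to 0.011 between WT cells. Between KO cells Igfbp3 ran from -0.095 to 0.21 and Igfbp6 from -0.039 to 0.15. Sirt3 ran from -0.00098 to 0.12 in female cells and -0.17 to 0.030 between WT cells.

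With a mean of at least 5 TPM, Igf1, Fbxo32, Esm1 and Deptor gave no value. Summing identifiers could not alter a member, as each has 1. Triplicate cultures and an unknown number of lines limit these p-values to spread among wells, and without read totals the counting error of low genes such as Igf1 and Igfbp5 is unknown. Protein, secretion and receptor activity were not measured here.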
